A study of Mus musculus with 6 samples.

Results

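Sterol and fatty acid synthesis genes were examined in B cells with and without GPR174. The set comprised 33 genes of these pathways, listed by name with earlier results of these data known: 17 enzymes of the mevalonate and sterol pathway, 6 genes of sterol sensing, SREBP control and sterol transfer, and 10 fatty acid genes. Of these, 32 had a row among the 12431 genes of the count table, and 30 passed the filter on low counts. Fads2 was included in the promoter search below, but its level is not analysed here. Idi1, which isomerises the isoprenoid precursor, had 5, 0 and 4 counts in WT and 1, 3 and 4 in KO and was not tested. Fads1, a fatty acid desaturase, had 2, 11 and 15 counts in WT and 10, 3 and 8 in KO and was not tested either.

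The cells were follicular B cells (CD21/35- CD23+) sorted from the spleens of adult male mice and frozen after 1 h in complete RPMI without added stimulus. WT mice were Gpr174+/Y and KO mice were Gpr174-/Y, with 3 libraries per genotype, taken here as separate mice. In the KO allele an in-frame tdTomato reporter takes the place of the only coding exon of the X-linked receptor gene, so every cell of a male KO mouse lacks the receptor from the germline on. GPR174 is a receptor for lysophosphatidylserine that couples to Gαs.

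Cells make cholesterol from acetyl-CoA through mevalonate, isoprenoids, squalene and lanosterol. When membrane sterol runs low, SCAP escorts the SREBP factors out of the endoplasmic reticulum, where INSIG proteins otherwise hold them, and the processed factors enter the nucleus. SREBP2 chiefly drives sterol genes and SREBP1 chiefly drives fatty acid genes, in which acetyl-CoA is carboxylated, built into palmitate, elongated and desaturated. Naive B cells are small resting cells, and lipid synthesis is known to be turned up when lymphocytes prepare to divide.

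Promoter sequences are shown for 3 members to let the elements of the pathway be seen: Hmgcs1 as the sterol enzyme whose window holds the searched SREBP element, Mvk as the one with the most NF-Y boxes, and Elovl5 as the member with a full cAMP response element. Each runs from 250 bases before the annotated start to 20 bases after it, 5′ to 3′ on the plus strand of GRCm38.p6 (RefSeq), at chr13:119690101-119690370, chr5:114444019-114444288 and chr9:77917115-77917384. Capitals mark the matches.
Hmgcs1: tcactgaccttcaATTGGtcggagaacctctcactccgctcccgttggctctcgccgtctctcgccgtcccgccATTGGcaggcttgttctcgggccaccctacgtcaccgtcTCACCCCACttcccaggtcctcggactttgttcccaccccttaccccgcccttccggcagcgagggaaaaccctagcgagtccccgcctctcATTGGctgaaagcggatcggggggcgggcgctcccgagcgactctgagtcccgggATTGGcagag
Mvk: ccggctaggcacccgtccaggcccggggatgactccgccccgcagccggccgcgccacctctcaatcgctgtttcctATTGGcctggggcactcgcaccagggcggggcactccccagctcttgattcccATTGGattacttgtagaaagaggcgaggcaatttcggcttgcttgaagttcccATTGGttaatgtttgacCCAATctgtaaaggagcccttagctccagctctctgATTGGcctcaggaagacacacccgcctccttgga
Elovl5: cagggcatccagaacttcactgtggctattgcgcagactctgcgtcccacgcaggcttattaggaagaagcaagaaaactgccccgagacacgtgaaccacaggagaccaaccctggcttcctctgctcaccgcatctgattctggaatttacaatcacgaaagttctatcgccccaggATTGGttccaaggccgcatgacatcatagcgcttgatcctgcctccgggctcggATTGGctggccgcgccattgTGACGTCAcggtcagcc

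Of the 33 genes, 26 matched an entry in the RefSeq promoter table. Fdps, Fdft1, Sqle, Stard4, Scd1, Scd2 and Fads1 had none and were not searched. Windows of 300 bases (250 before the start and 50 after) were searched on both strands. The sterol element TCACNCCAC was found in 1 of 14 sterol enzymes (7.14%), in Hmgcs1, where it begins 137 bases before the start, and in 1.44% of all 27025 genes. The NF-Y box CCAAT, whose factor is a known partner of SREBP, was found in 13 of 14 sterol enzymes (92.9%), 4 of 5 control genes (80%) and 4 of 7 fatty acid genes (57.1%), against 41.1% of all genes. The cAMP response element TGACGTCA was found in 1 of 7 fatty acid genes (14.3%), in Elovl5 from base 4 after the start, in no window of the sterol groups, and in 2.03% of all genes. Over all 26 members searched, the sterol element and the cAMP response element were each found in 1 (3.85%). The letters of the sterol element and the NF-Y box do not overlap in the Hmgcs1 window. A match describes the letters only. The search took exact letters, so a window without a match can still hold a variant of an element.

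Sequencing depth ranged from 8452460 to 10944833 counts per library. The libraries were made by priming at the 3′ ends of transcripts, and levels are given as CPM (read counts relative to the scaled library total), which are compared between genotypes within a gene and not between genes. WT replicate 2 stood apart along the first principal component of the 500 most variable genes, at 32.5 against -8.23 to -4.39 in the other libraries, on a component that held 40.0% of the variance. Gpr174 was counted at 135.9, 125 and 121 CPM in WT and at 99.8, 100.2 and 99.8 CPM in KO. Its genotypes did not overlap, and edgeR called it higher in WT (adjusted p 0.0359), the direction of the labels. The KO mean was still 78.3% of the WT mean. Its 3′ counts can lie outside the replaced exon, so they do not check the labels. Follicular B cell markers summed to 4663 to 4893 CPM in WT and to 5313 to 5467 CPM in KO, without overlap. Of the 9 tested, 2 were called lower in WT by edgeR (Cd79b and Blk), against 0.514% of all genes tested. WT values lay below all KO values in 5 of the 9, against 8.28% of all genes tested. The list includes Fcer2a and Cd22, which the paper reports as higher in GPR174-deficient cells after culture. Cr2, the gene of CD21/35, was read at a mean of 1043 CPM ± 34.4 (SD, n = 3) in WT libraries and 1057 CPM ± 96.8 (SD, n = 3) in KO libraries although the sorted cells are labelled negative for the protein. Myeloid markers summed to 105 to 128 CPM in WT and 91.3 to 98.1 CPM in KO, with 10 of 10 fitted higher in WT and 0 called by edgeR. Erythroid markers were uneven, at 2684 to 4722 CPM in WT and 3017 to 7589 CPM in KO. T cell markers summed to 46.1 to 67.3 CPM in WT and 36.3 to 54.7 CPM in KO, and Cd3e had 2 to 14 counts per library. Most of this sum was Lck, at a mean of 42.5 CPM in WT and 37.4 CPM in KO. Cd3g and Cd8b1, which had too few counts to be tested, were higher in every WT library than in any KO library. The other T cell markers overlapped between genotypes. NK cell markers, at 8.06 to 14.7 CPM in WT and 5.92 to 6.11 CPM in KO, did not overlap between genotypes, with 5 of 6 listed in the table, 2 tested and 0 called by edgeR. Of these, Gzma, a granzyme, was apart, with means of 5.60 CPM in WT and 2.62 CPM in KO. Its unadjusted edgeR p was 0.0137 and its edgeR adjusted p was 0.235. Nkg7, the other one tested, overlapped between genotypes and was fitted lower in WT, at a log2 fold change (WT over KO) of -0.26. Plasma cell markers summed to 118 to 127 CPM in WT and 103 to 119 CPM in KO. Most of this was Xbp1, at a mean of 79.8 CPM in WT and 78.8 CPM in KO. The part of these cells in the results was not tested, and in bulk RNA fewer cells of a type cannot be told apart from less RNA per cell.

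To ask whether lipid synthesis genes differed between WT and KO cells after 1 h of culture, the libraries were compared by edgeR's quasi-likelihood test. It covered all 10514 genes that passed the filter. No uncultured library was in the comparison, so a difference that arose in culture cannot be told apart from an earlier one. Of the 30 members tested, 1 was called at an adjusted p of 0.05 (Scd1, higher in WT), where 1.82% of all genes tested were called, 1.3% higher and 0.514% lower in WT. At an unadjusted p of 0.05, 2 members passed (Scd1 and Elovl5), against 11.9% of all genes (6.5% higher and 5.37% lower in WT). WT and KO values did not overlap in 3 members, higher in WT for Scd1 and Elovl5 and lower in WT for Fdps, against 16.7% of all genes. The median log2 fold change (WT over KO) was -0.05 over the members and -0.003 over all genes. The p values measure the spread between libraries of one experiment.

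**Figure D1:**
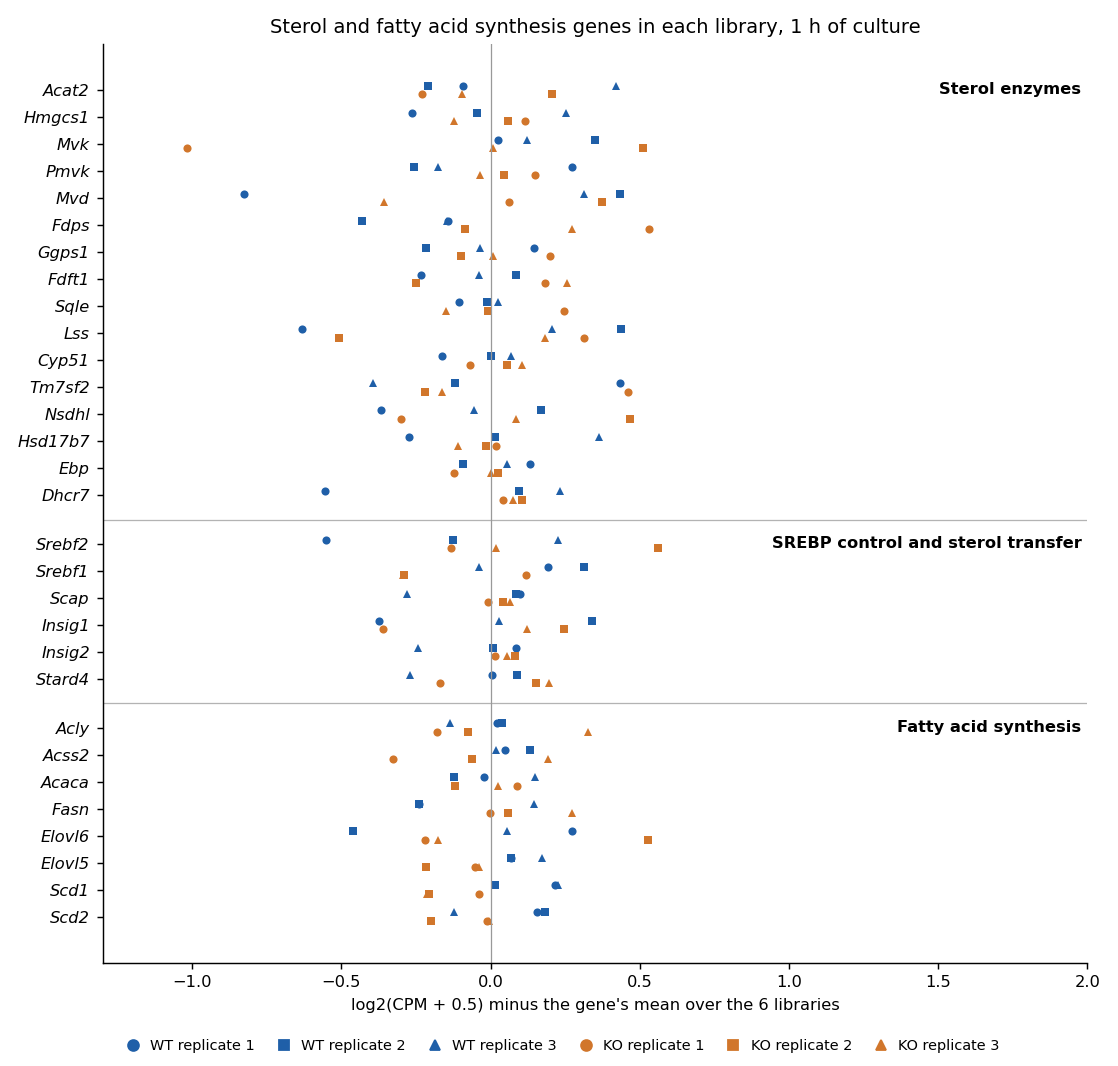
Level of each of the 30 tested members in each library, as log2(CPM + 0.5) minus the gene's mean over the 6 libraries, with WT in blue and KO in orange and a symbol for each replicate. Blue and orange intermix in most rows, and Scd1, Elovl5 and Fdps are the 3 rows in which they do not overlap.

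No enzyme of the sterol pathway passed the test in WT against KO cells. Of 16 tested, 0 were called by edgeR, by DESeq2 or by limma-voom, 0 had an unadjusted edgeR p under 0.05, and the smallest adjusted p was 0.65. The fitted log2 fold change was above 0 in 6 and below 0 in 10, which for all genes tested was below 0 in 50.4%. The median was -0.06 with a range of -0.55 to 0.24. Their summed level was 448, 467 and 532 CPM in WT and 505, 499.96 and 474 CPM in KO. The lowest and the highest sum were both WT libraries, so the genotypes overlapped over their whole range.

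The first steps condense acetyl-CoA into HMG-CoA. Acat2, which joins acetyl-CoA units, was at 17.4, 15.98 and 25.0 CPM in WT and 15.7, 21.5 and 17.4 CPM in KO, a log2 difference of 0.10 ± 0.21 (SE). Hmgcs1, the HMG-CoA synthase and a standard readout of SREBP2 activity, was at 124, 144 and 177 CPM in WT and 161, 155 and 137 CPM in KO. WT replicate 1 was the lowest and WT replicate 3 the highest, with all KO libraries between them. The log2 fold change of Hmgcs1 was -0.03 ± 0.11 (SE), with a 95% interval of -0.25 to 0.20, which leaves out a difference of 1.5-fold in either direction, and an edgeR adjusted p of 0.956.

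The next enzymes turn mevalonate into isoprenoid units. Mvk, mevalonate kinase, was at 4.85, 6.20 and 5.22 CPM in WT and at 2.09, 6.98 and 4.78 CPM in KO, so that the lowest and the highest value were both KO libraries. Its interval of -0.58 to 1.06 was wide. Pmvk, the kinase of the following step, differed by -0.09 ± 0.18 (SE), with its highest level of 27.8 CPM in WT replicate 1. Mvd, the decarboxylase, was lowest in WT replicate 1 at 4.94 CPM and at 12.5 and 11.5 CPM in the other two WT libraries, against 9.56, 11.99 and 7.02 CPM in KO, and differed by 0.01 ± 0.31 (SE). Gm20388 is annotated on the opposite strand at the 3′ end of Mvd, and since the use of strand in counting was not stated, their reads cannot be told apart.

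Fdps and Ggps1 make the farnesyl and geranylgeranyl chains that also anchor small GTPases to membranes. Fdps was at 3.75, 2.98 and 3.75 CPM in WT and at 6.28, 3.92 and 5.17 CPM in KO. All 3 WT libraries lay below all 3 KO libraries, with 8.28% of all genes tested apart in this direction. The log2 fold change was -0.55 ± 0.39 (SE), the 95% interval was -1.36 to 0.26 and the edgeR adjusted p was 0.65, on 25 to 69 counts per library. Its reads are uncertain, since 20% of the 50-base words in the last 500 bases of its transcript are shared with other annotated genes, and Gm43738 overlaps it there on the same strand. Ggps1 was at 84.6, 65.7 and 74.6 CPM in WT and 87.8, 71.3 and 77.0 CPM in KO, a log2 difference of -0.07 ± 0.11 (SE). In both genotypes replicate 1 was the highest and replicate 2 the lowest.

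Squalene is made by Fdft1, oxidised by Sqle and closed into lanosterol by Lss. Fdft1 had 39 to 65 counts per library and differed by -0.16 ± 0.35 (SE), with Ctsb on the opposite strand at its 3′ end. Sqle, a rate-limiting enzyme of the pathway, was at 18.5, 19.8 and 20.3 CPM in WT and 23.8, 19.8 and 17.9 CPM in KO, a log2 difference of -0.07 ± 0.18 (SE). The 3 WT values of Sqle lay within the range of the KO values. Lss, at 16 to 38 counts per library, had an interval of -1.06 to 1.11, so that a 2-fold difference in either direction lay inside it, and it too is overlapped at its 3′ end on the opposite strand.

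The remaining enzymes work lanosterol into cholesterol. Cyp51, which removes the first methyl group, was at 72.5, 81.4 and 85.3 CPM in WT and at 77.5, 84.5 and 87.5 CPM in KO. Its log2 fold change was -0.06 ± 0.10 (SE), with an interval of -0.27 to 0.15, and Akap9 overlaps its 3′ end on the opposite strand. Ebp, the sterol isomerase, differed by 0.07 ± 0.13 (SE) and Hsd17b7, a keto reductase, by 0.09 ± 0.17 (SE). Dhcr7, which catalyses the last reduction, was at 7.96 CPM in WT replicate 1, at 12.8 and 14.1 CPM in the other WT libraries, and at 12.3, 12.9 and 12.6 CPM in KO. Without WT replicate 1 the spread of Dhcr7 over the remaining 5 libraries ran from 12.3 to 14.1 CPM. Nsdhl, a sterol dehydrogenase on the X chromosome, differed by -0.19 ± 0.26 (SE), and Tm7sf2, a sterol reductase with 14 to 36 counts per library, by -0.05 ± 0.56 (SE).

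The size of fitted difference that could have been called followed from each gene's standard error, which holds counting error and further spread between libraries. At the unadjusted p of the last gene called (0.000864), the fold change needed ranged from 1.31 for Cyp51 to 4.24 for Tm7sf2 over the 16 sterol enzymes, with a median of 1.79. The 95% interval lay within 1.5-fold in both directions for 8 of 16 enzymes, against 56% of all genes tested, and within 2-fold for 12. WT replicate 1 was the lowest library for Hmgcs1, Mvd, Lss, Cyp51, Nsdhl, Hsd17b7 and Dhcr7, and 5 of the 16 tested sterol enzymes lay above their own mean there, against 8 to 11 in each other library. Fitted differences smaller than the fold change needed could not have been called in these libraries. This bounds the fitted value and not the true difference.

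**Figure D2:**
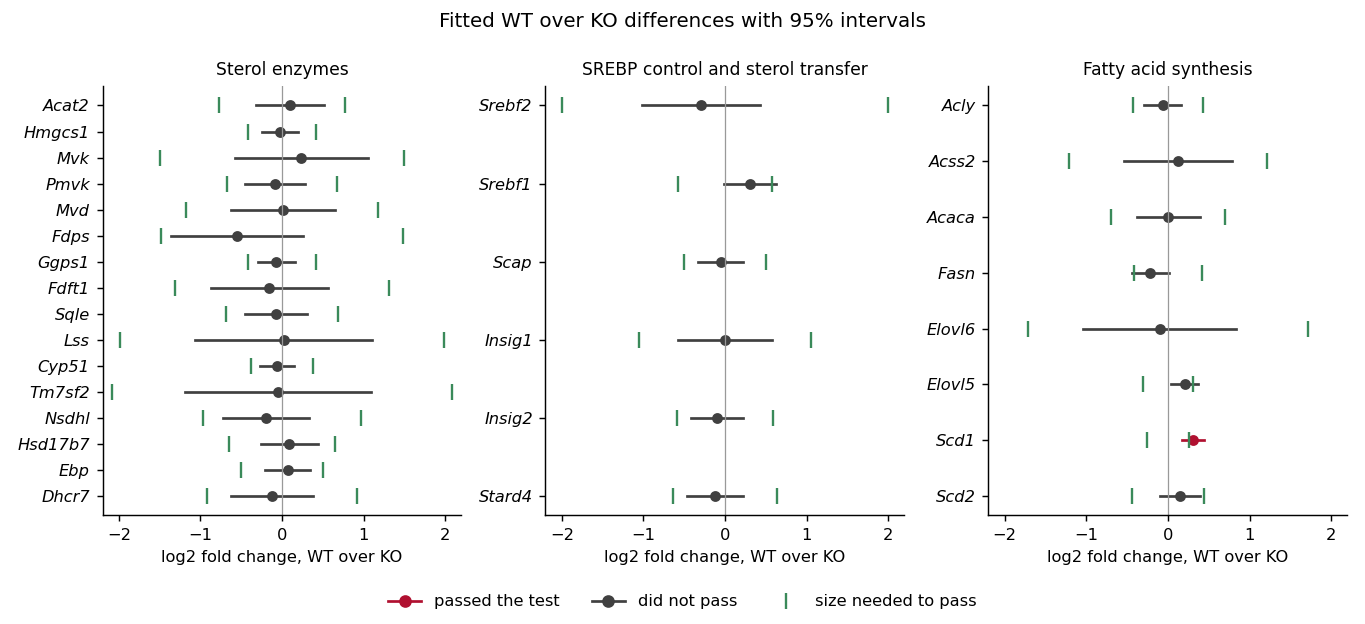
Fitted log2 fold change of WT over KO (points) with 95% intervals (lines) for the tested members of each group, and green ticks at the size a fitted difference needed to pass the test. The intervals of Scd1 (0.17 to 0.45) and Elovl5 (0.03 to 0.37) lie above 0, the other 28 include 0, and the intervals of Lss and Tm7sf2 span 2-fold either way.

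Genes of sterol sensing and SREBP control did not pass the test either. Of 6 tested, 0 were called by edgeR, DESeq2 or limma-voom, 0 had an unadjusted edgeR p under 0.05, and the smallest adjusted p was 0.436. The fitted log2 fold change was above 0 in 1 and below 0 in 5, with a median of -0.07. Their summed level was 215, 247 and 242 CPM in WT and 230, 292 and 244 CPM in KO.

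The factors themselves had opposite fitted signs. Srebf2, which encodes SREBP2, was at 70.8, 95.3 and 122 CPM in WT and at 94.7, 154 and 105 CPM in KO. WT replicate 1 was the lowest and KO replicate 2 the highest, and the other 4 values intermixed. Its log2 fold change was -0.30 ± 0.28 (SE), with an interval of -1.02 to 0.42 and an edgeR adjusted p of 0.776. Srebf1, which encodes SREBP1, was at 38.6, 42.0 and 32.8 CPM in WT and at 36.7, 27.5 and 27.4 CPM in KO. The highest KO library lay above the lowest WT library. For Srebf1 the difference was 0.31 ± 0.15 (SE), with an interval of -0.01 to 0.62, an unadjusted p of 0.0562 and an edgeR adjusted p of 0.436, and it ran from 0.23 to 0.46 over the alternatives tried without a call. Rai1 overlaps the 3′ end of Srebf1 on the opposite strand.

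The partners of the factors differed less. Scap, the escort, had a mean of 40.8 CPM ± 5.88 (SD, n = 3) over WT libraries and of 42.4 CPM ± 1.10 (SD, n = 3) over KO libraries. Insig1, itself a target of SREBP that closes a feedback loop, was at 6.50, 10.97 and 8.74 CPM in WT and 6.55, 10.2 and 9.36 CPM in KO. In both genotypes replicate 1 was the lowest and replicate 2 the highest, and the fitted difference was -0.0004 ± 0.28 (SE). Insig2, the second retention protein, differed by -0.09 ± 0.16 (SE) and Stard4, a carrier that moves sterol between membranes, by -0.12 ± 0.17 (SE), with WT replicate 3 the lowest library for both.

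In the fatty acid group 1 of 8 tested genes was called, higher in WT, as were 1.3% of all genes tested. WT values lay above all KO values in 2 of the 8, against 8.43% of all genes tested. The 8 had a median log2 fold change of 0.07, with 5 fitted above 0 and 3 below. The summed level of the group was 2040, 1837 and 2070 CPM in WT and 1761, 1606 and 1677 CPM in KO, and the genotypes did not overlap. Scd1 carried this: without it the sums were 464, 465 and 482 CPM in WT and 442, 429 and 507 CPM in KO, and the genotypes overlapped.

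Scd1, the stearoyl-CoA desaturase that puts the first double bond into saturated acyl chains, lies at chr19:44394455-44407879 on the minus strand (mm10), and no annotated gene overlaps it. It was counted 17222, 11507 and 13989 times in WT and 14497, 10792 and 12004 times in KO. As levels these were 1576, 1372 and 1588 CPM in WT and 1319, 1177 and 1170.2 CPM in KO. All WT libraries lay above all KO libraries, but WT replicate 2 came close to KO replicate 1. The WT mean was 1512 CPM ± 121 (SD, n = 3) and the KO mean 1222 CPM ± 84.4 (SD, n = 3), or 80.8% of WT. This gave a log2 fold change of 0.31 ± 0.07 (SE), a 95% interval of 0.17 to 0.45 (1.12-fold to 1.36-fold) and an edgeR adjusted p of 0.0123.

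The call on Scd1 rested on several libraries at once. The edgeR adjusted p was 0.0645 without WT replicate 1, 0.0857 without WT replicate 3, 0.108 without KO replicate 2 and 0.152 without KO replicate 3, and the call was lost in each of these fits. It was kept without WT replicate 2, the library that stood apart, at 0.00123, and without KO replicate 1, at 0.011. The log2 fold change ran from 0.27 to 0.37 over all fits, and the call was made in 11 of 15. As for Scd1, summed myeloid markers were higher in every WT library (105 to 128 CPM) than in any KO library (91.3 to 98.1 CPM). So were summed NK cell markers (8.06 to 14.7 CPM in WT, 5.92 to 6.11 CPM in KO). Of the 2 NK cell markers tested, Gzma was fitted higher and Nkg7 lower in WT. Summed follicular B cell markers were lower in every WT library (4663 to 4893 CPM) than in any KO library (5313 to 5467 CPM). The part of these cells in the Scd1 result was not tested. No 50-base word in the last 500 bases of the Scd1 transcript is shared with another annotated gene.

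**Figure D3:**
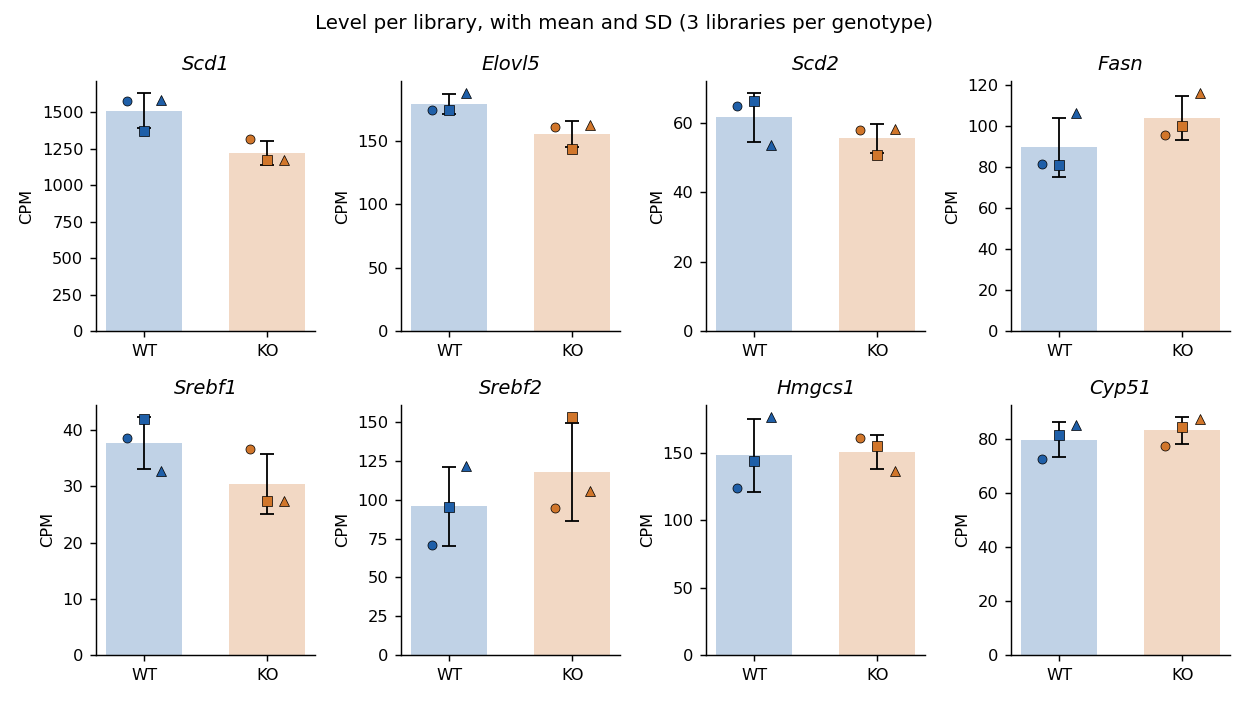
CPM of 8 members in each library (symbols as replicates 1, 2 and 3: circle, square, triangle), with bars at the mean and error bars of 1 SD over 3 libraries per genotype, each axis starting at 0. The WT values of Scd1 run from 1372 to 1588 CPM and its KO values from 1170.2 to 1319 CPM, while Srebf1, Srebf2, Hmgcs1 and Cyp51 intermix.

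The other desaturase and the elongases did not pass. Scd2, the second stearoyl-CoA desaturase, was at 64.9, 66.2 and 53.5 CPM in WT and 57.7, 50.7 and 58.0 CPM in KO. WT replicate 3 lay among the KO libraries. For Scd2 the difference was 0.15 ± 0.12 (SE), with an interval of -0.09 to 0.39 and an edgeR adjusted p of 0.692. Elovl5, which elongates polyunsaturated chains, was at 174, 174 and 188 CPM in WT and at 160.4, 143 and 162 CPM in KO. The genotypes did not overlap, with 8.43% of all genes tested apart in this direction. Elovl5 differed on the log2 scale by 0.20 ± 0.08 (SE), with an interval of 0.03 to 0.37, an unadjusted p of 0.0205 and an edgeR adjusted p of 0.283. Over the alternatives tried, its adjusted p ran from 0.2 to 0.682. Elovl6, which elongates palmitate, had 20 to 48 counts per library and differed by -0.10 ± 0.46 (SE).

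The enzymes that supply and build palmitate gave no call. Fasn, fatty acid synthase, was at 81.2, 81.1 and 106 CPM in WT and at 95.8, 99.9 and 116 CPM in KO. Its fitted sign was the opposite of that of Scd1, with WT replicate 3 above 2 of the KO libraries. Fitted over all libraries, Fasn differed by -0.22 ± 0.11 (SE), with an interval of -0.44 to 0.01, an unadjusted p of 0.0614 and an edgeR adjusted p of 0.452. Acly, which cleaves citrate to acetyl-CoA, was at 114, 116 and 102 CPM in WT and 99.4, 107 and 141 CPM in KO, with the highest value in KO replicate 3. Acly differed by -0.06 ± 0.11 (SE). Acaca, the carboxylase that commits acetyl-CoA to the pathway, differed by 0.004 ± 0.19 (SE), and Acss2, which makes acetyl-CoA from acetate and is overlapped at its 3′ end by Gss on the opposite strand, by 0.13 ± 0.32 (SE).

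The fatty acid group was read more precisely than the sterol enzymes. The fold change needed for a call ran from 1.19 for Scd1 to 3.29 for Elovl6 with a median of 1.35. The interval lay within 1.5-fold in both directions for 6 of 8 and within 2-fold for 7. For Fasn, Acly and Scd2 a difference of 1.5-fold in either direction therefore lay outside the interval.

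**Figure D4:**
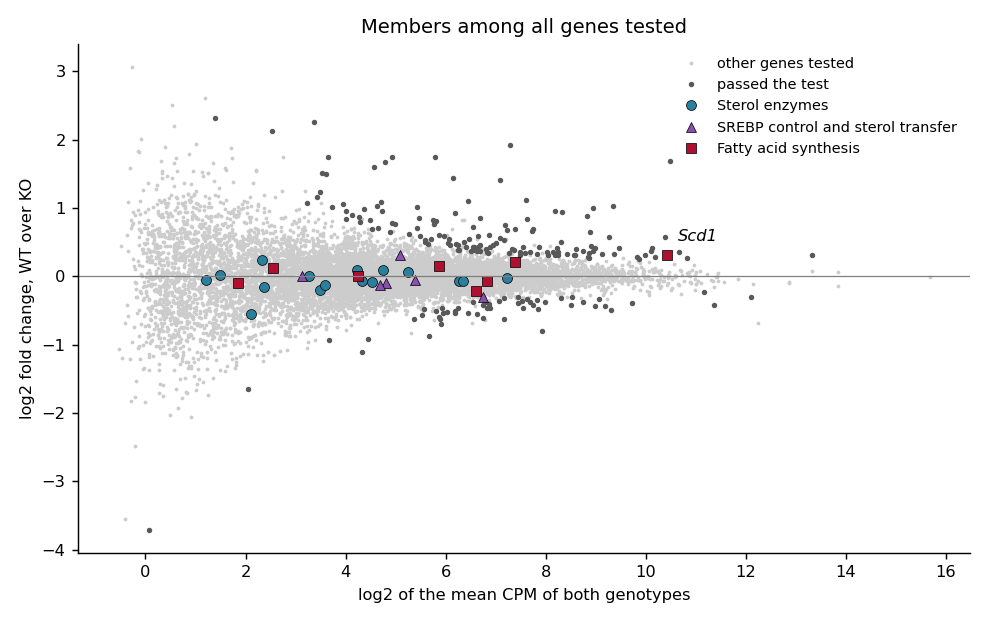
Log2 fold change of WT over KO against log2 mean CPM for the 10514 genes tested, with genes past the threshold in dark grey and members in colour by group. Scd1 lies at a log2 fold change of 0.31 and is the member past the threshold, and the other 29 lie within the grey cloud.

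Genes of the neighbouring steps were set beside the members. Of 48 listed, 40 had a row and were tested, 0 were called by edgeR, DESeq2 or limma-voom, and 3 had an unadjusted edgeR p under 0.05, 1 higher and 2 lower in WT, where 11.9% of all genes tested did (6.5% higher and 5.37% lower). Their median log2 fold change was -0.04.

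The gene with the smallest p of each neighbouring list was as follows. Npc2, which carries cholesterol out of lysosomes, was at 158, 152 and 179 CPM in WT and 184, 193 and 178 CPM in KO, and it differed by -0.19 ± 0.08 (SE) at an edgeR adjusted p of 0.362. Nceh1, a cholesteryl ester hydrolase, was at 23.6, 42.0 and 25.4 CPM in WT and 21.2, 26.2 and 23.7 CPM in KO. Its value stood out in WT replicate 2, and its edgeR adjusted p was 0.494. Acsl3, which activates fatty acids to their CoA esters, was at 66.1, 72.5 and 71.7 CPM in WT and at 60.2, 63.8 and 52.2 CPM in KO. The genotypes did not overlap for Acsl3, and it differed by 0.26 ± 0.11 (SE) at an edgeR adjusted p of 0.346. Acadvl, which opens mitochondrial oxidation of very long chains, was at 40.3, 30.2 and 27.6 CPM in WT and 46.1, 40.8 and 37.9 CPM in KO, and it differed by -0.34 ± 0.15 (SE) at an edgeR adjusted p of 0.35.

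By list, 11 further sterol and uptake genes had a median of -0.03, 8 genes of sterol export, esters and the LXR receptors -0.02, 11 genes of fatty acid activation and elongation -0.01, and 10 genes of fatty acid breakdown -0.09. In the last list 8 of 10 were fitted lower in WT, against 50.4% of all genes tested, and 0 were called by edgeR. Of the 10, 1 did not overlap between genotypes (Slc25a20, the mitochondrial acylcarnitine carrier, lower in WT), as did 8.28% of all genes in that direction. It was at 20.5, 16.5 and 19.3 CPM in WT and 22.4, 26.3 and 20.9 CPM in KO, with an edgeR adjusted p of 0.549. Abca1, the sterol exporter induced by LXR, differed by 0.15 ± 0.09 (SE), and Abcg1 by 0.01 ± 0.10 (SE).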

How the data were processed

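RNA of sorted mouse splenic follicular B cells was sequenced after 1 h of culture, in 3 WT and 3 KO libraries grouped by their titles. The table deposited for them holds whole-number counts per gene with no normalization. As the methods describe, the authors prepared QuantSeq 3′ libraries, aligned single-end reads to mm10 with STAR and counted them with HTSeq. Versions, annotation and strand use were not stated. The smallest total of a row was 10, and 0 sample columns were unused. Total counts were 8452460 to 10944833 per library. Replicates of a genotype differed by a chi-square per degree of freedom of 6.89 to 10.9, so none was a copy of another.

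Genes were filtered with filterByExpr and scaled by TMM in edgeR (version 4.0.16, R 4.3.3), and WT and KO were compared with its two-sided quasi-likelihood test with robust dispersions, adjusted by Benjamini and Hochberg over 10514 genes at 0.05. Standard errors are the absolute log2 fold change over the square root of F. Alternatives were DESeq2 (1.42.0, the study's tool), limma-voom (limma 3.58.1), RLE or upper-quartile factors, library totals, no filter, a mean of at least 50 counts, an adjusted p of 0.01, the replicate number as a block and omission of each library. The tests were checked on simulated counts. Named were Gpr174, all members, and of each neighbouring list every gene past the threshold or, with none, the gene with the smallest p. Others (Abca1, Abcg1, Slc25a20 and markers) were named after their values were seen. Some genes of the neighbouring lists are not reported here. Members and lists were chosen with earlier results of these data known. Gene positions are from GENCODE M21 (mm10) and promoters from RefSeq (GRCm38.p6).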

Additional observations from a re-analysis of the deposited data

How the results depend on the processing

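Every alternative tried gave 0 calls among sterol enzymes, sterol control genes and neighbouring genes, and 29 of 30 tested members were called in none of the fits. Scd1 was the exception, called in 11 of 15 fits, and an adjusted p threshold of 0.01 left 0 fatty acid genes called and 95 genes over all, against 1 and 191. Fits that left out 1 library gave 0 to 1 fatty acid calls and 91 to 183 calls over all genes, with the lowest counts without KO replicate 3 (91) and KO replicate 2 (113). DESeq2 called 258 genes, limma-voom 172 and a test on all genes without a filter 218. The fatty acid median of 0.066 was 0.125 without a filter (which adds Fads1) and 0.128 at a mean of at least 50 counts (which drops Elovl6), and ran from 0.053 to 0.181 when 1 library was left out. The medians ran from -0.109 to 0.01 for sterol enzymes and from -0.157 to -0.005 for control genes under those omissions.

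Of 415 values of members under alternatives, 369 kept their direction and side of the threshold, 4 lost the call (Scd1) and 42 changed sign, in 19 members, 31 of them when 1 library was left out. The other 11 sign changes lay near 0 in uncalled genes. Mvd went to -0.12 with limma-voom, -0.0035 with upper-quartile factors and -0.047 with the replicate block. Lss went to -0.091 with limma-voom and -0.0057 with the block. Insig1 went to 0.0026 with DESeq2, 0.0022 with RLE factors and 0.00056 at a mean of at least 50 counts. Acaca went to -0.0022 with limma-voom, -0.0056 with upper-quartile factors and -0.0032 with library totals. Without 1 library in turn, the log2 fold changes that crossed 0 ran over these ranges: Acaca -0.076 to 0.064, Acat2 -0.12 to 0.23, Acly -0.16 to 0.10, Acss2 -0.0053 to 0.28, Cyp51 -0.11 to 0.0041, Dhcr7 -0.29 to 0.095, Elovl6 -0.30 to 0.22, Ggps1 -0.17 to 0.018, Hmgcs1 -0.17 to 0.091, Hsd17b7 -0.094 to 0.24, Insig1 -0.20 to 0.18, Lss -0.25 to 0.33, Mvd -0.23 to 0.34, Mvk -0.11 to 0.66, Nsdhl -0.37 to 0.022, Pmvk -0.28 to 0.015, Scap -0.12 to 0.059, Sqle -0.16 to 0.048 and Tm7sf2 -0.39 to 0.26. The cause was not tested.

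Replicate numbers are shared by the genotypes, and deviations of same-numbered libraries correlated by 0.0498, 0.0136 and 0.0433 over 10514 genes. Libraries with different numbers correlated by -0.0402 to -0.003. The main test did not take the numbers as pairs, and whether they mark shared handling was not tested. Each library correlated best with its own number. With the replicate block 281 genes were called, and of the members again 1 fatty acid gene (Scd1, adjusted p 0.00311).

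Of the tested members, Lss, Tm7sf2, Fdps, Fdft1, Elovl6, Mvk and Acss2 had under 70 counts in every library, and Idi1 and Fads1, with at most 15, were not tested.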
